A study of Mus musculus with 20 samples.

Results

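The hair shaft keratins are the intermediate filament proteins that fill and harden the hair shaft. Of 10 genes on the list, 9 had a row in the deposited expression table and 1 is not analysed here. Their rows were found by gene symbol, with 1 row each, out of 46744 rows. The list itself was chosen with earlier results of these data known, so its counts are descriptive. They are the type I chains Krt31, Krt32, Krt33a, Krt33b, Krt34, Krt35 and Krt36 and the type II chains Krt81 and Krt86. All 9 averaged 1 FPKM or more over the groups, the filter on low values, as did 12136 of 19244 named genes. None was listed at 0 in any group.

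RNA was sequenced from whole skin of the inbred mouse strain C57BL/6, in 20 samples of 6 groups. Control skin of genotype Sod2+/+ was taken at 700 days (n = 4) and at 50 days (n = 5), with sample titles that start with CO-Skin. Conditional knockout skin (cKO, genotype Sod2-/-) was taken at 300 days (n = 3) and at 100 days (n = 3), and control skin of genotype Sod2+/+ at 300 days (n = 3) and at 100 days (n = 2), with titles that start with S2-Skin. Sod2 encodes the superoxide dismutase of mitochondria, and the labels do not say in which skin cells, or with which Cre driver, it was deleted. Ratios were taken only between groups of 1 title prefix. Summed Y chromosome genes were 112 FPKM in the 700-day controls and 101 and 107 FPKM in cKO skin at 300 and 100 days. In the other control groups they were at most 0.743 FPKM. Sex thus cannot be told apart from age in old against young controls, nor from genotype in cKO against control skin. The authors deposited 1 FPKM value per gene and group (fragments per kilobase of transcript, relative to the mapped fragments). The values below therefore carry no error and no test, and the read depth is unknown. Genes were counted as higher or lower from a log2 ratio of (FPKM + 1) of 1 or more in size, and the values of the others are given without a call.

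As background, keratins form filaments from pairs of 1 acidic type I chain and 1 basic type II chain. Hair keratins are rich in cysteine and are cross-linked with keratin-associated proteins as the shaft hardens. They are made by cells that leave the matrix of the hair bulb and become the cortex and the cuticle of the shaft, which happens in growing (anagen) follicles and not in resting ones. The transcription factors Lef1, Hoxc13, Foxn1 and Msx2 are known to act in this lineage. In human hair, keratin 35 appears early, in the matrix and the cuticle, keratin 32 is a cuticle keratin, and keratins 31, 33a, 33b, 34, 81 and 86 belong to the cortex.

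The type I members lie close together on mouse chromosome 11 and the type II members on chromosome 15 (GRCm38, mm10, coordinates from GENCODE release M21). Krt33a starts this run at chr11:100011195-100016212 and Krt36 ends it at chr11:100102007-100105626, with Krt33b, Krt34, Krt31, Krt32 and Krt35 between them. All 7 are on the minus strand. Krt81 lies at chr15:101459061-101463751 on the minus strand and Krt86 at chr15:101473478-101479986 on the plus strand. The span of Krt32 overlaps an annotated antisense gene, Gm11571, and no other member overlaps an annotated gene. The libraries were directional, per the labels, but whether strand was used in counting is not stated, so reads of this pair may be mixed.

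RefSeq gives a promoter sequence (build GRCm38.p6) for 5 of the members, Krt31, Krt32, Krt33b, Krt34 and Krt36. The 250 bases before the gene start are shown for 4 of them. Krt31, Krt33b and Krt34 lie next to each other and held the same motifs. Krt36, at the end of the run, held no match to the letters searched. They are written 5′ to 3′ on the minus strand. Capitals mark matches, on either strand, to the TATA box letters TATAAA, to the LEF1/TCF core (CTTTGAA or CTTTGAT or CTTTGTA or CTTTGTT) and to the HOXC13 core (TTTATGA or TTTATGG or TTTATTA or TTTATTG or TTTATAA or TTTATAG). The regions are chr11:100050552-100050801 for Krt31, chr11:100029869-100030118 for Krt33b, chr11:100041555-100041804 for Krt34 and chr11:100105627-100105876 for Krt36.
Krt31: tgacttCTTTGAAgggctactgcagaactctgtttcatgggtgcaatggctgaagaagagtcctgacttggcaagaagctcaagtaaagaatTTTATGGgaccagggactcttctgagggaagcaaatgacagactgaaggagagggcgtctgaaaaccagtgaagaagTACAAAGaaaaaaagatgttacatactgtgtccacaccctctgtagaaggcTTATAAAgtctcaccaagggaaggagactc
Krt33b: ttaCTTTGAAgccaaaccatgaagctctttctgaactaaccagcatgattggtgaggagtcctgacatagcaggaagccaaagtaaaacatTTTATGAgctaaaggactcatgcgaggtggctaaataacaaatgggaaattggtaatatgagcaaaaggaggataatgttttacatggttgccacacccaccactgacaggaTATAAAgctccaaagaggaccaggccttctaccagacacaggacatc
Krt34: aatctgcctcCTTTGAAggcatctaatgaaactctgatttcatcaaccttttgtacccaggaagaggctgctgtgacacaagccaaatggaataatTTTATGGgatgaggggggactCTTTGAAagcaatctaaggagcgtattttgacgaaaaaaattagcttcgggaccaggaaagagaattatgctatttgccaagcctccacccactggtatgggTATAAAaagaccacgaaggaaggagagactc
Krt36: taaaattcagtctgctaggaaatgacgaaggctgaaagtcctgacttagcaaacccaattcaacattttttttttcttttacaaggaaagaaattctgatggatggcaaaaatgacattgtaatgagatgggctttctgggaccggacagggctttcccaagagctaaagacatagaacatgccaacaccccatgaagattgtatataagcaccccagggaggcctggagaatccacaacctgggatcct

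The promoters of Krt31, Krt32, Krt33b and Krt34 each held CTTTGAA at nearly the same place, with its first base 244, 247, 247 and 240 bases before the start. All 4 also held TTTATGA or TTTATGG, starting 158, 158, 159 and 154 bases before the start, and TATAAA within 47 bases of it. Krt31 had another LEF1/TCF match on the opposite strand at 81 bases, and Krt34 a further CTTTGAA at 133 bases. In Krt31 the TATA box letters lie inside an opposite-strand match to the HOXC13 core (TTTATAA). The Krt36 window held none of these letters, which says nothing of the factors. It does hold TATATAAG, a TATA-like run that was not among the letters searched. Among 32851 mouse promoters in the same table, 14.8% held a LEF1/TCF core, 18.4% a HOXC13 core and 12.4% the letters TATAAA in the 250 bases. These matches describe letters, and binding was not measured.

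FPKM is per length, so levels can be set side by side between genes. Krt33a had the highest level of the 9 in every group but the 700-day controls, where Krt34 was first. Krt36 had the lowest level in each of the 6 groups. Krt33a stood at 15.6 FPKM in 700-day and 38.1 FPKM in 50-day control skin, at 284 FPKM in cKO and 123 FPKM in control skin at 300 days, and at 273 FPKM in cKO and 127 FPKM in control skin at 100 days. For Krt36 the values were 1.25 FPKM in 700-day and 1.18 FPKM in 50-day control skin, 13.9 FPKM in cKO and 4.82 FPKM in control skin at 300 days, and 9.88 FPKM in cKO and 7.19 FPKM in control skin at 100 days. Summed over the 9 genes, the level in control skin was 83.1 FPKM at 700 days and 169 FPKM at 50 days. It was 1182 and 546 FPKM in cKO and control skin at 300 days, and 1151 and 634 FPKM in cKO and control skin at 100 days. Each S2-Skin group had a higher sum than each CO-Skin group, and nothing in the labels says what the prefixes stand for.

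**Figure D1:**
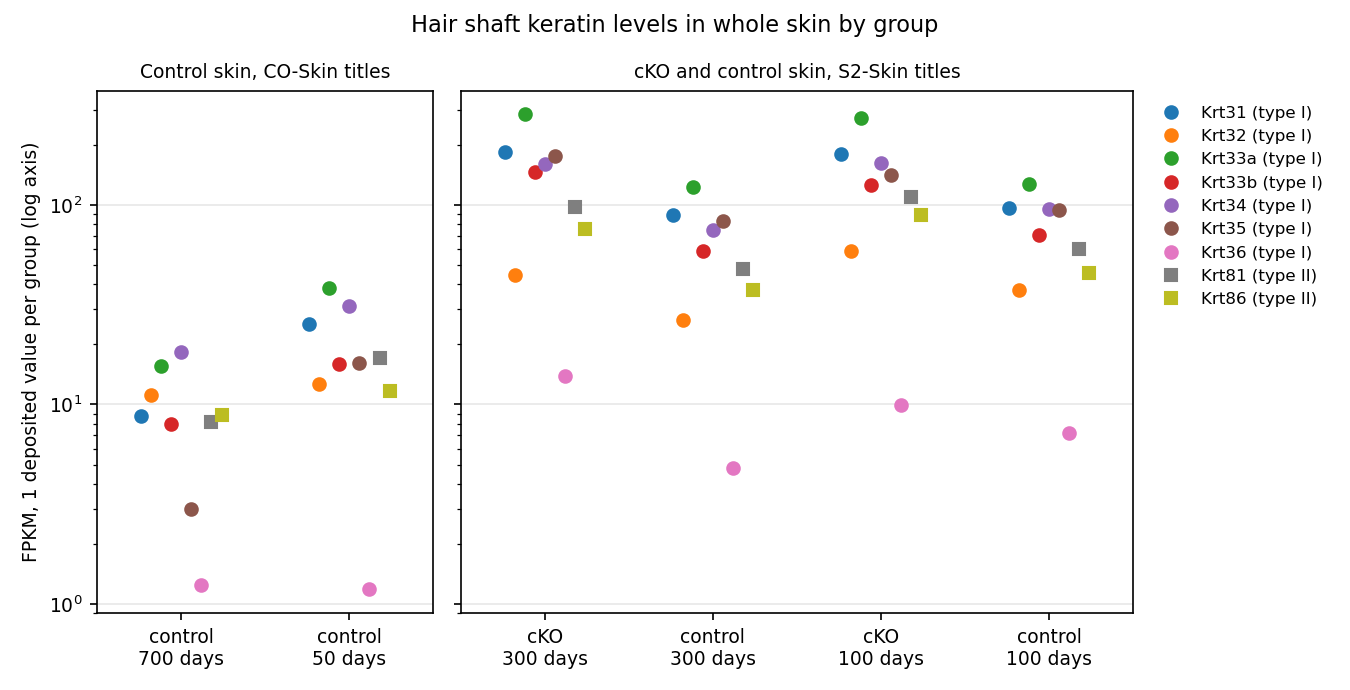
FPKM of the 9 hair shaft keratins (log axis) in each group, 1 deposited value per gene and group, with type I genes as circles and type II genes as squares and the title prefixes in separate panels. Krt33a reached 284 FPKM in cKO skin at 300 days, and Krt36 is the lowest point of every group.

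Some members share sequence, which limits how sure their separate values are. Of the 75-base windows of its GENCODE transcript (the reads had 75 cycles, per the labels), 35.5% of those of Krt81 and 33.5% of those of Krt86 occur exactly in another gene's transcript, all of them Krt81, Krt83, Krt86 or Krt87. The share was 24.7% for Krt34, 19.1% for Krt31, 14.4% for Krt33a and 11.0% for Krt33b, which share windows among themselves and, for Krt31 and Krt34, with Krt35. It was 1.76% for Krt35 and 0% for both Krt32 and Krt36. The sources used here do not give how reads that fit several genes were assigned, so the values of the members with shared windows are uncertain one by one.

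The first comparison asked how 700-day control skin differed from 50-day control skin. Of the hair shaft keratins, Krt35, Krt31 and Krt33a were lower in the old group, Krt35 most of all, while the ratios of Krt32 and Krt36 were near 0. Krt35, the early keratin of the lineage in human hair, was 2.999 FPKM at 700 days against 16.1 FPKM at 50 days (log2 ratio -2.10). Krt31, a cortex keratin, was 8.78 against 25.3 FPKM (-1.43), and Krt33a 15.6 against 38.1 FPKM (-1.24). These 3 of 9 members were counted as lower and none as higher, beside 3.24% of all named genes lower and 0.61% higher. In whole skin, fewer cells of a type and less RNA per cell cannot be told apart, nor can sex and age in this comparison.

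Krt81 and Krt33b lay just outside the size counted. Krt81 was 8.16 FPKM at 700 days against 17.1 FPKM at 50 days (-0.98), and Krt33b 8.01 against 16.0 FPKM (-0.92). Krt34 followed at 18.3 against 31.2 FPKM (-0.74) and Krt86 at 8.82 against 11.7 FPKM (-0.37). Krt32, the cuticle keratin, was 11.2 against 12.6 FPKM (-0.16), and Krt36 1.25 against 1.18 FPKM (0.04). The median over the 9 was -0.92 and that over all named genes -0.03. Of the 9 genes 8 had a ratio below 0. With a pseudocount of 0.1 or 0.5, 4 genes were counted as lower, Krt81 being the fourth. Of all named genes, 6.34% and 4.43% were then lower.

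The second comparison set cKO skin of 300 days against control skin of that age, where sex and genotype cannot be told apart. All 9 members had a ratio above 0, and 7 of them, all but Krt32 and Krt86, were counted as higher, beside 1.84% of all named genes higher and 5.08% lower. Krt33b, a cortex keratin, was 146 FPKM in cKO against 59.0 FPKM in control skin (log2 ratio 1.29). Krt33a stood at 284 against 123 FPKM (1.20). The ratio was 1.08 for Krt34, with 160.3 against 75.2 FPKM, and 1.04 for Krt31, with 184 against 89.0 FPKM. Krt35 was 176 FPKM in cKO against 82.7 FPKM in control skin (1.08). The median of the 9 was 1.08, and that of all named genes -0.01.

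Krt36, low in both groups, had the highest ratio of the family at 300 days, 13.9 FPKM in cKO against 4.82 FPKM in control skin (1.35). The type II chain Krt81 was 97.7 against 47.6 FPKM (1.02). Krt86, just short of the size counted, was 75.3 against 37.5 FPKM (0.99). Krt32 moved least, at 44.5 against 26.6 FPKM (0.72). The 9 ratios thus lay between 0.72 and 1.35, a narrower range than the -2.10 to 0.04 of the old against the young controls. Several members sat close to the size counted, and between 5 and 8 were counted as higher under the alternatives tried. The count of 5, without Krt31 and Krt81, came from a scaling added after seeing the data, with 1.60% of all named genes higher. The count of 8 came with a pseudocount of 0.1, beside 3.08% of all named genes, and with a common median, beside 1.96%.

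The third comparison asked the same at 100 days, with the same limit of sex. Again all 9 members had a higher value in cKO than in control skin, and Krt33a alone was counted, at 273 against 127 FPKM (log2 ratio 1.10). That is 1 of 9, beside 2.18% of all named genes higher and 4.29% lower. Krt86 was 89.3 FPKM in cKO against 45.4 FPKM in control skin (0.96), Krt31 179 against 96.0 FPKM (0.89) and Krt81 109.6 against 60.3 FPKM (0.85). Krt33b was 126 against 71.0 FPKM (0.82) and Krt34 163 against 95.4 FPKM (0.76). The lowest ratios were those of Krt32 at 58.5 against 37.2 FPKM (0.64), Krt35 at 141 against 94.5 FPKM (0.58) and Krt36 at 9.88 against 7.19 FPKM (0.41). The median of the members was 0.82, and that of all named genes 0.02. With values rescaled to equal totals (TPM), Krt33a was at 0.98 and no member was counted, beside 1.94% of all named genes higher. The median of all named genes was then -0.10.

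**Figure D2:**
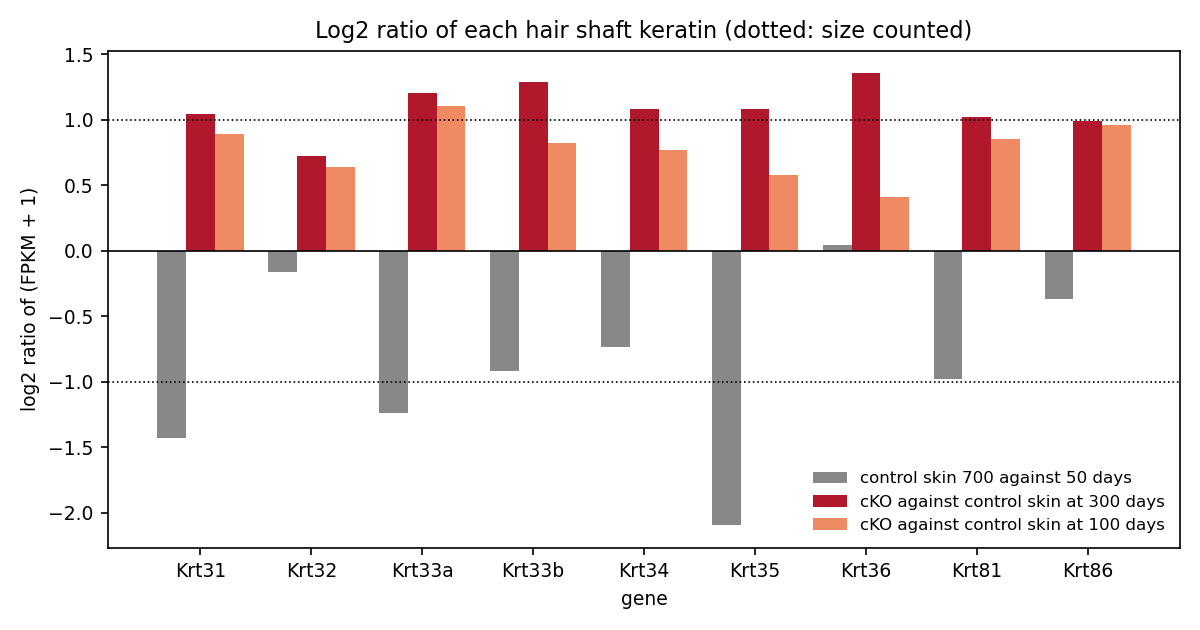
Log2 ratio of (FPKM + 1) of each hair shaft keratin, from 1 value per group, for old against young control skin and for cKO against control skin at 300 and 100 days; dotted lines mark the size counted. All ratios of the cKO comparisons are above 0, and Krt35 has the lowest ratio in old skin, at -2.10.

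Within a genotype, the members differed little between 300 and 100 days, and none was counted in either. In control skin, 300 against 100 days, the 9 log2 ratios ran between -0.49 (Krt36, 4.82 against 7.19 FPKM) and -0.04 (Krt33a, 123 against 127 FPKM), all below 0, beside 4.42% of all named genes past the size counted in either direction. In cKO skin they ran between -0.39 (Krt32, 44.5 against 58.5 FPKM) and 0.45 (Krt36, 13.9 against 9.88 FPKM), beside 3.82%. The summed level in cKO skin was 1182 FPKM at 300 days against 1151 FPKM at 100 days, a fold of 1.03. In control skin it was 546 FPKM at 300 days against 634 FPKM at 100 days, a fold of 0.861.

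The genotype difference at 300 days minus that at 100 days was above 0 in all 9 members, between 0.03 for Krt86 and 0.94 for Krt36. None reached the size counted, beside 8.53% of all named genes in either direction. Krt36, Krt35 (0.51) and Krt33b (0.47) had the largest differences, and both genotype comparisons of Krt32 were alike (0.72 and 0.64). Krt36 alone was counted with a pseudocount of 0.1 (1.05), beside 5.6% of all named genes higher and 6.8% lower. It was also the only member counted on the TPM scale (1.08), beside 5.7% higher and 4.4% lower. No test of these differences is possible with 1 value per group. Sex and genotype cannot be told apart in them either, given the Y chromosome genes described below.

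The mix of the 9 transcripts, which no rescaling of a whole group can change, was close to the same in the 4 S2-Skin groups and differed in the 700-day controls. Krt35 made up 3.61% of the summed FPKM in the 700-day controls against 9.50% in the 50-day controls. In the other 4 groups it lay between 12.3% (cKO at 100 days) and 15.2% (control at 300 days). Krt32 made up 13.4% at 700 days against 7.46% at 50 days, and between 3.76% and 5.88% in the S2-Skin groups. Krt31 held 10.6% at 700 days against 14.95% at 50 days. Krt33a made up 24.1% in cKO skin of 300 days against 22.6% in control skin, and 23.8% against 20.0% at 100 days. In order of level, Krt35 had rank 8 of the 9 genes at 700 days and rank 5 at 50 days. Krt32 had rank 3 at 700 days and rank 7 at 50 days. Reads of Krt32 may be mixed with those of the antisense gene Gm11571, as said above.

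**Figure D3:**
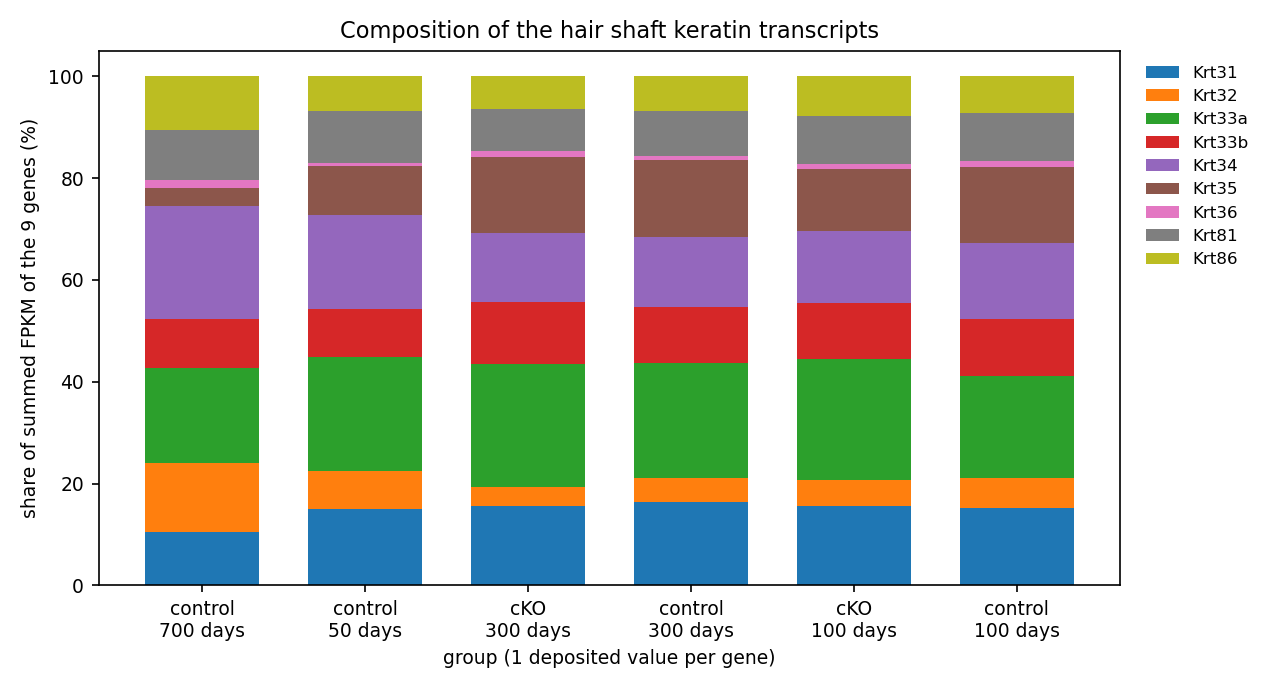
Share of each gene in the summed FPKM of the 9 hair shaft keratins (bars sum to 100%) in each group, from 1 deposited value per gene and group. The Krt35 segment is 3.61% at 700 days and 9.50% at 50 days, and the 4 bars of cKO and control skin at 300 and 100 days look alike.

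The type I members outweighed the 2 type II members in every group. Their summed FPKM was 66.1 against 17.0 at 700 days (a type I to type II ratio of 3.89) and 141 against 28.8 at 50 days (4.88), both in control skin. At 300 days the ratio was 5.83 in cKO skin and 5.41 in control skin, and at 100 days 4.78 in cKO skin and 5.00 in control skin. These ratios leave out other hair keratins and the listed gene that is not analysed here. Once the other hair keratins Krt39, Krt40, Krt82, Krt83, Krt84 and Krt87 were added, a choice made after seeing the data, the ratio lay between 1.66 (cKO at 100 days) and 1.98 (50-day controls).

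These 6 other hair keratins had medians of -0.80 in old against young control skin and of 0.82 and 0.75 in cKO skin at 300 and 100 days. Krt83 and Krt87 are type II chains that share windows with Krt81 and Krt86. In 300-day cKO against control skin Krt83 was 231 against 98.5 FPKM (log2 ratio 1.22), and Krt87 was 119 against 48.1 FPKM (1.29). At 100 days they were 235 against 102 FPKM (1.20) and 119 against 59.7 FPKM (0.98). Krt82, a cuticle keratin in human hair, was 0.954 FPKM at 700 days against 3.70 FPKM at 50 days (-1.27), and Krt83 12.6 against 28.1 FPKM (-1.10). Krt84 was the exception at 700 days, with 4.36 against 3.40 FPKM (0.28). In all, 2 of 6 were counted as lower in the old controls, 2 as higher in cKO skin at 300 days and 1 at 100 days. For these counts and those of the lists below, 0.61% of all named genes were higher and 3.24% lower in old control skin. In cKO skin the shares were 1.84% higher and 5.08% lower at 300 days, and 2.18% and 4.29% at 100 days. Krt39 and Krt40 were counted in none of these comparisons, with log2 ratios of 0.88 and 0.76 at 300 days and 0.76 and 0.75 at 100 days.

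The inner root sheath, the layer that moulds the growing shaft, showed another pattern over the cKO comparisons. At 300 days none of its 9 measured genes was counted (median log2 ratio 0.05), against 7 of the 9 shaft keratins (1.08). At 100 days all 9 were counted as higher (median 1.79), against 1 of the 9 shaft keratins (0.82). For Krt72, a type II chain of the inner root sheath, cKO skin had 219 FPKM and control skin 297 FPKM at 300 days (-0.44), and cKO skin 575 FPKM and control skin 102 FPKM at 100 days (2.48). Krt28, a type I chain of the same layer, was 222 against 253 FPKM at 300 days (-0.19) and 523 against 123 FPKM at 100 days (2.08). Trichohyalin (Tchh), which hardens this layer, was 602 against 476 FPKM (0.34) and 957 against 247 FPKM (1.95). Its genes summed to 2550 against 2435 FPKM at 300 days and to 5429 against 1567 FPKM at 100 days. In old against young control skin 2 of 9, Krt28 and Krt73, were lower and none higher, with a median of -0.46, and the sum was 517 at 700 days against 761 FPKM at 50 days. The difference between the layers was not tested, since there is 1 value per group.

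Keratin-associated proteins, which embed the keratin filaments of the shaft, were measured for 50 genes. Of these 10 were higher and none lower in cKO skin at 300 days (median 0.71), beside 1.84% of all named genes higher and 5.08% lower. At 100 days 3 were higher and 5 lower (median 0.14), beside 2.18% and 4.29%. In old against young control skin 1 was higher and 18 lower (median -0.79). Krtap19-1 had the lowest ratio in the old group, at 1.64 FPKM at 700 days against 58.9 FPKM at 50 days (-4.50). The same gene was 144 against 57.7 FPKM in cKO against control skin at 300 days (1.30) and 59.2 against 155 FPKM at 100 days (-1.37). Its neighbour by name Krtap19-4 was 65.7 against 27.9 FPKM (1.21) and 32.5 against 94.4 FPKM (-1.51). Krtap20-2 had the highest ratio of the list at 300 days, 7.68 against 0.889 FPKM (2.20), and was 4.08 against 0.694 FPKM at 100 days (1.59). Members of this family are short and alike, so reads can be split between them.

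**Figure D4:**
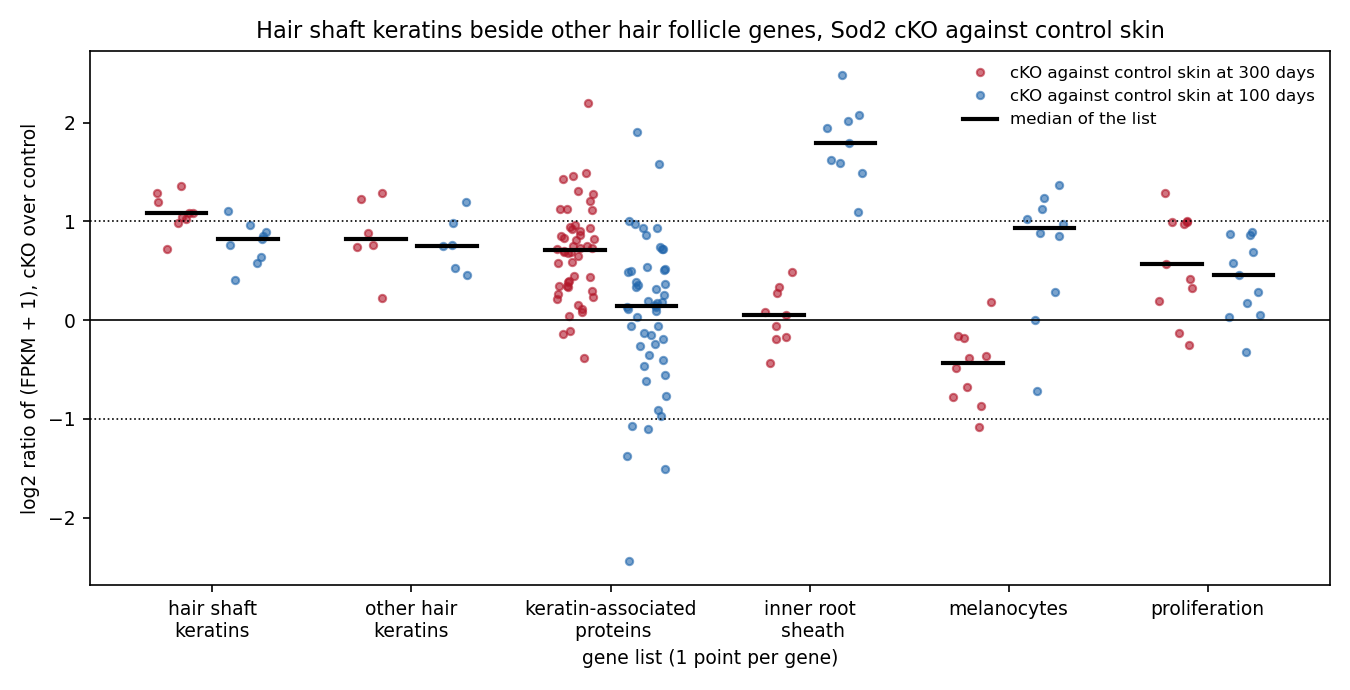
Log2 ratio of (FPKM + 1) of cKO over control skin at 300 days (red, left) and 100 days (blue, right) for the hair shaft keratins and 5 other gene lists, 1 point per gene, with the median of each list as a bar. Inner root sheath genes have a median of 0.05 at 300 days and 1.79 at 100 days, and the shaft keratins 1.08 and 0.82.

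Transcription factors of the shaft lineage had ratios above 0 in cKO skin at both ages. Of 10 measured, 1 was counted at 300 days (median 0.64) and 3 at 100 days (median 0.91), and none was counted as lower. Hoxc13, a homeobox factor of hair keratin genes, was 30.8 FPKM in cKO against 13.2 FPKM in control skin at 300 days (1.16), and 29.99 against 15.04 FPKM at 100 days (0.95). Lef1, a factor of the Wnt pathway, was 49.3 against 28.9 FPKM at 300 days (0.75) and 53.4 against 23.3 FPKM at 100 days (1.16). Foxn1, the factor lost in nude mice, was 9.82 against 6.16 FPKM (0.60) and 13.2 against 5.89 FPKM (1.04). Dlx3, a homeobox factor of the hair matrix, was 49.7 against 26.4 FPKM (0.89) and 56.2 against 26.4 FPKM (1.06). Lef1 was also the one factor counted in old against young control skin, at 2.77 against 9.04 FPKM (-1.41), while Hoxc13 was 4.68 against 6.21 FPKM (-0.34).

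Genes listed as differentiation partners of the shaft, among them structural proteins and enzymes, were measured for 15 genes. Msx2 is on this list and also on that of the transcription factors. None was higher and 1, the desmosomal cadherin Dsc2, was lower in cKO skin at 300 days (7.79 against 17.5 FPKM, log2 ratio -1.07, median of the list 0.50), and 6 were higher and 1 lower at 100 days (median 0.92). Dsg4, the desmosomal cadherin of the hair shaft, was 35.7 against 20.9 FPKM at 300 days (0.74) and 48.5 against 22.8 FPKM at 100 days (1.06). The peptidylarginine deiminase Padi3 was 27.5 against 35.5 FPKM at 300 days (-0.36) and 61.2 against 21.5 FPKM at 100 days (1.47). Crym, a thyroid hormone-binding protein, was 31.1 against 48.1 FPKM (-0.62) and 87.0 against 23.3 FPKM (1.85). Selenbp1, a selenium-binding protein, was 29.3 against 14.5 FPKM (0.97) and 12.9 against 31.4 FPKM (-1.22). In old against young control skin 1 of the 15 was lower, Gprc5d at 5.60 against 12.8 FPKM (-1.06), beside 3.24% of all named genes. The listed desmosomal genes Dsp, Jup and Pkp1, unlike the summed shaft keratins, were higher in both CO-Skin groups than in any S2-Skin group. Dsp was 1789 FPKM at 700 days and 1472 FPKM at 50 days, against at most 798 FPKM in S2-Skin. Their cKO against control ratios were positive at both ages.

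The genes whose levels followed the members most closely over the 6 groups were named by a Pearson correlation with the mean log2(FPKM + 1) of the members, among 8642 other genes that averaged 5 FPKM or more. The 10 highest were Krt87, Hist1h2bk, Krt83, Gtf2i, Lap3, Snrnp27, Dtnb, Msx2, Tango2 and Dsg4, with r between 0.994 and 0.999 over 6 group values. Krt87 and Krt83 share windows with the members Krt81 and Krt86, and what shared reads add to their r was not tested. The groups fall into 2 title prefixes with levels apart, and 200 genes had an r of at least 0.95. Lap3, a leucine aminopeptidase, was 35.1 FPKM at 700 days against 53.2 FPKM at 50 days, 195 against 115 FPKM in cKO against control skin at 300 days and 206 against 119 FPKM at 100 days. Msx2, a homeobox factor of the hair matrix, was 2.25 FPKM at 700 days against 4.09 FPKM at 50 days. In cKO against control skin it was 18.8 against 11.4 FPKM at 300 days and 21.8 against 11.0 FPKM at 100 days. Of the 30 highest, 4 were keratin-associated proteins, a list with 50 measured genes among 12136 named genes. None was of the inner root sheath list, but with only 9 measured genes on it that absence says little.

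Markers of other cells of the hair bulb and the skin also differed between the groups, some in the direction of the shaft keratins and some against it, and their part in the results was not tested. Of 10 measured genes of melanocytes, the pigment cells that colour the shaft, 3 (Tyr, Tyrp1 and Kit) were lower in old control skin, with a sum over the list of 21.3 FPKM at 700 days against 46.3 FPKM at 50 days. In cKO against control skin 1 (Oca2) was lower at 300 days (summed 109.5 against 153 FPKM) and 4 (Tyr, Tyrp1, Pmel and Mlana) were higher at 100 days (259 against 139.9 FPKM). Of 11 proliferation genes 2 (Bub1 and Plk1) were higher at 300 days (197 against 133 FPKM) and none at 100 days (170.4 against 130.5 FPKM). None was lower in old control skin (83.6 against 99.9 FPKM). Of 10 interfollicular epidermis genes 3 (Krt14, Krt1 and Krt2) were higher in old control skin (9658 against 6655 FPKM) and 3 (Krt14, Krt1 and Flg) at 300 days in cKO skin (3557 against 2012 FPKM). None was higher at 100 days (2253 against 2098 FPKM).

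Non-epithelial and glandular markers also differed between the groups compared. Summed adipocyte markers were 228 FPKM at 700 days against 666 FPKM at 50 days, 1755 against 3644 FPKM in cKO against control skin at 300 days and 1705 against 5010.2 FPKM at 100 days. Skeletal muscle markers summed to 91.0 FPKM at 700 days against 3678 FPKM at 50 days, to 18291 FPKM in cKO skin of 300 days against 16478 FPKM in control skin and to 12693 against 19239 FPKM at 100 days. Lymphocyte markers stood apart in the 300-day controls, with 405 FPKM against at most 17.6 FPKM in any other group. Simple and glandular epithelium markers were highest in the 100-day controls (451 FPKM) and lowest in cKO skin at 300 days (34.8 FPKM), where Wfdc2 was listed at 0. Genes of the Y chromosome (Uty, Kdm5d, Ddx3y and Eif2s3y) summed to 112 FPKM in the 700-day controls, 101 and 107 FPKM in the cKO groups at 300 and 100 days, and at most 0.743 FPKM in the other control groups. Sex and age, and sex and genotype, thus cannot be told apart in the first 3 comparisons. Nor can sex and genotype in the difference of the genotype differences, or where cKO and control skin are set side by side between ages. Sod2 itself was 16.8 FPKM in cKO against 23.5 FPKM in control skin at 300 days and 17.6 against 27.7 FPKM at 100 days.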

How the data were processed

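The authors deposited FPKM values, 1 column per group, in a table of 46744 rows. Per the submitters' processing notes HISAT2, Cufflinks and Cuffdiff were used with mm10. Versions, annotation, strand setting and how samples of a group were combined are not given in the sources used here. Per the labels' protocols, ribosomal RNA was removed with 1 of 2 kits before directional libraries were made. Which sample had which kit is not stated. No values per sample were used, so no test, error or interval was possible, and depth is unknown.

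Groups came from source names. Named genes were rows with 1 symbol, without clone, predicted-gene, Rik, LOC, microRNA and small RNA names and pseudogenes (19244, of which 18944 are in GENCODE M21). Clone names were added to this filter after a first count, which changed no member's value. Of several rows of a symbol the highest was kept. Genes that averaged 1 FPKM or more entered (12136). Log2 ratios of (FPKM + 1) understate changes of low genes. An exact 0 can be a failed estimate. The members and lists were chosen with earlier results of these data known. The rule named every member, all other hair keratins and, per list and comparison, up to 4 genes of largest log2 ratio. Not every gene it names is given, and some were named to spell out a count after their values were seen. Counting was checked on simulated tables with changes set larger than the size counted, which tests the code and not how sure the counts are. The alternatives covered the pseudocount (0.1, 0.5), the filter (none, or 5 FPKM), the scaling (a common median, equal totals as TPM) and summed rows. Python 3.11.15, pandas 2.3.3, numpy 2.4.6 and matplotlib 3.10.9 were used.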

Additional observations from a re-analysis of the deposited data

Results flagged for a closer look

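Between 300 and 100 days, 5 members had log2 ratios of opposite sign in cKO and control skin, each from 1 value per group, and the differences were not tested. The cKO minus control difference was 0.94 for Krt36 (0.45 in cKO and -0.49 in control skin), 0.51 for Krt35 (0.32 and -0.19), 0.47 for Krt33b (0.20 and -0.26), 0.15 for Krt31 (0.04 and -0.11) and 0.096 for Krt33a (0.06 and -0.04). The opposite signs of Krt31 and Krt33a depended on the scaling. In cKO skin the ratio of Krt31 was below 0 under 3 alternatives (-0.05 on the TPM scale) and that of Krt33a under 2 (-0.03 on the TPM scale), while their ratios in control skin were below 0 under every alternative run. On the TPM scale Krt33b, Krt35 and Krt36 had opposite signs. The median of the melanocyte genes had opposite signs in the cKO comparisons, -0.44 at 300 days and 0.93 at 100 days, a difference of -1.36, also not tested. Sex and genotype cannot be told apart in any of these differences.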

How the results depend on the processing

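With 8 alternatives, all 54 member log2 ratios gave 432 values. Of these, 423 kept their side of the size counted, 6 came to pass it and 3 no longer did, with no called ratio reversed. The alternatives of the filter and of summed rows could not change a member's ratio. Their values are among the 423 by construction and say nothing of how stable the ratios are. Without a replicate spread, a value was taken as unmoved within a factor of 1.5. The members counted ranged from 3 to 4 for old against young control skin, 5 to 8 for cKO at 300 days and 0 to 1 at 100 days. At 100 days the count was 0 on the TPM scale. For the difference of the genotype differences it was 1 with a pseudocount of 0.1 and 1 on the TPM scale. Of all named genes, 5.6% were higher and 6.8% lower with that pseudocount, and 5.7% and 4.4% on the TPM scale. Equal totals of genes above 0 in every group, an alternative chosen after seeing the data, gave the count of 5 at 300 days. The medians ranged from -0.99 to -0.79, from 1.04 to 1.12 and from 0.69 to 0.84 in these 3 comparisons. The median of cKO skin at 300 against 100 days ranged from -0.05 to 0.04 and changed sign under 3 alternatives. With the other hair keratins included, the type I to type II ratio was 1.76 in the 700-day and 1.98 in the 50-day controls, 1.87 in cKO and 1.88 in control skin at 300 days, and 1.66 in cKO and 1.85 in control skin at 100 days, by the construction of the sums. Over all named genes, a pseudocount of 0.1 gave 138 higher and 769 lower in old control skin, against 74 and 393 with 1, 374 and 869 for cKO at 300 days, against 223 and 616, and 465 and 811 at 100 days, against 264 and 521. With genes averaging 5 FPKM or more, the counts were 148 and 273 at 300 days, 169 and 333 at 100 days, and 153 and 68 for control skin at 300 against 100 days, against 412 and 124. On the TPM scale the median of all named genes was -0.15 for control skin at 300 against 100 days, against 0.03 as deposited. No paired analysis was possible because the columns hold 1 value per group, and for the same reason no replicate could be left out.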

Other observations

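Fgf5, the growth factor that ends the growing phase of the follicle, was 5.47 FPKM in cKO against 0.801 FPKM in control skin at 100 days, a log2 ratio of 1.84. At 300 days it was 1.04 against 2.59 FPKM (-0.82). Fgf18, made in the resting follicle, was 6.09 against 1.39 FPKM at 100 days (1.57) and 2.81 against 3.24 FPKM at 300 days (-0.15). Shh, a signal of the hair matrix, was 1.56 against 1.13 FPKM at 100 days and 2.19 against 0.755 FPKM at 300 days, ratios of 0.27 and 0.86. Of 12 measured genes of this list 2, Fgf5 and Fgf18, were counted at 100 days, none at 300 days and none in old against young control skin.

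Bulge stem cell genes had medians of 0.02 at 300 days and 0.20 at 100 days in cKO against control skin, with none of 8 counted in either. In old against young control skin 1, Lgr6, was counted as lower, with a median of -0.13. Among 8 dermal papilla genes Wif1 was higher and Prom1 lower in cKO skin at 300 days, and Lef1 higher and Prom1 lower at 100 days. In old against young control skin 2 of this list, Lef1 (-1.41) and Vcan (-1.36), were lower, with a median of -0.44. Lef1 is also on the list of shaft transcription factors. Of 5 companion layer and outer root sheath keratins 3 were higher at 300 days and 2 at 100 days. Krt6b, a keratin also known from wounded epidermis, was 47.9 against 0.167 FPKM at 300 days (5.39) and 0.347 against 0.114 FPKM at 100 days (0.27). Krt16, known from the same settings, was 61.8 against 5.24 FPKM (3.33) and 8.81 against 3.84 FPKM (1.02). In old against young control skin they were 19.0 against 1.72 FPKM (2.88) for Krt6b and 36.04 against 3.71 FPKM (2.98) for Krt16. Krt75, a companion layer keratin, was 58.6 against 61.1 FPKM at 300 days (-0.06) and 102 against 43.7 FPKM at 100 days (1.21).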
